A study of Mus musculus with 48 samples.

Results

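The transcripts described here encode the conjugation enzymes of the liver: UDP-glucuronosyltransferases (Ugt), glutathione S-transferases (Gst) and sulfotransferases (Sult). They were chosen by symbol (families Ugt1, Ugt2 and Ugt3, classes Gsta, Gstk, Gstm, Gsto, Gstp, Gstt and Gstz, and all Sult) and by 10 or more counts in at least 3 libraries. Of 22354 genes in the count table, 59 symbols matched and 48 met the count minimum: 7 Ugt1, 7 Ugt2, 2 Ugt3, 13 Sult, 4 Gsta, 7 Gstm and 8 other Gst genes. The other 11 had at most 13 counts in any library. All 48 were among the 13646 genes tested. Liver RNA came from 48 female C57BL/6J mice, 23 with a knockout (KO) of Bmal1 restricted to adipocytes and 25 wild type (WT). Bmal1, symbol Arntl, is a core activator of the circadian clock, and the driver of the deletion is not given in the sources used here. All mice, KO and WT, spent 1 day in darkness and were fasted for 24 h. Livers were taken at zeitgeber time (ZT) 0, 4, 8, 12, 16 and 20 h, with 4 KO and 4 WT mice at each time except ZT16, which had 3 KO and 5 WT mice.

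Conjugation makes fat-soluble compounds water-soluble so that they can leave in bile or urine. Ugt enzymes add glucuronic acid to bilirubin, steroids, bile acids and drugs, Sult enzymes add a sulfonate group to phenols, steroids and bile acids, and Gst enzymes join glutathione to reactive electrophiles. In mouse liver several of these genes differ by sex, vary with the clock, or respond to nuclear receptors and to NRF2.

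The libraries held 12842000 to 13009800 counts each without the albumin gene Alb. Body weight averaged 24.2 ± 3.57 g in the 23 KO mice, against 21.8 ± 1.997 g (both SD) in the 25 WT mice, and ages ran from 28.75 to 105 weeks in both. Mice taken at ZT20 averaged 42.1 weeks in KO and in WT, against 56.9 to 73.4 weeks in the other groups, so a low value at ZT20 and a young age cannot be told apart. Liver Arntl averaged 18.1 ± 13.2 CPM (counts per 1e6 counts) in KO and 18.4 ± 14.1 CPM in WT (SD, n = 23 and 25; log2 difference 0.30, SE 0.16, adjusted p = 0.347), which checks nothing for a deletion in adipocytes. Markers of hepatocytes summed to between 24684 and 53901 CPM in KO and between 29206 and 48986 CPM in WT, while 6 adipocyte markers summed to at most 0.665 CPM in KO and 2.92 CPM in WT. Among markers of other cells and zones, all 6 genes of each of the periportal hepatocyte, neutrophil and stellate cell lists lay below 0 in KO minus WT. Of these, 1 passed the test, the periportal serine dehydratase gene Sds. The 2 exocrine pancreas genes tested lay above 0, and the other lists with tested genes held both signs. In the intestinal list Fabp2 passed (higher in KO), while Lct, Sis, Muc2 and Vil1 averaged at most 0.437 CPM in either genotype. The part of hepatocyte zone or of the mix of cells in the differences given here was not tested.

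Per kilobase of transcript, Gsta3, a glutathione transferase that detoxifies aflatoxin epoxide in mice, was the most abundant of the 47 genes with an annotated transcript. It averaged 1372 CPM per kb over the 48 livers. Sult2a1 followed with 712, Gstz1 with 683, Sult2a2 with 665 and Sult1a1 with 639 CPM per kb. Gstz1 encodes maleylacetoacetate isomerase of tyrosine breakdown, and Sult1a1 the main phenol sulfotransferase. The highest of the other classes were Gstm1 (548), Ugt2b5 (532), Ugt3a2 (272) and Ugt1a1 (117 CPM per kb), the last the bilirubin transferase. The 48 genes together took 1.32 ± 0.328% of the counts in KO livers and 1.18 ± 0.216% in WT livers (SD, n = 23 and 25), with ranges of 0.894 to 2.34% and 0.835 to 1.82% that overlapped.

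**Figure D1:**
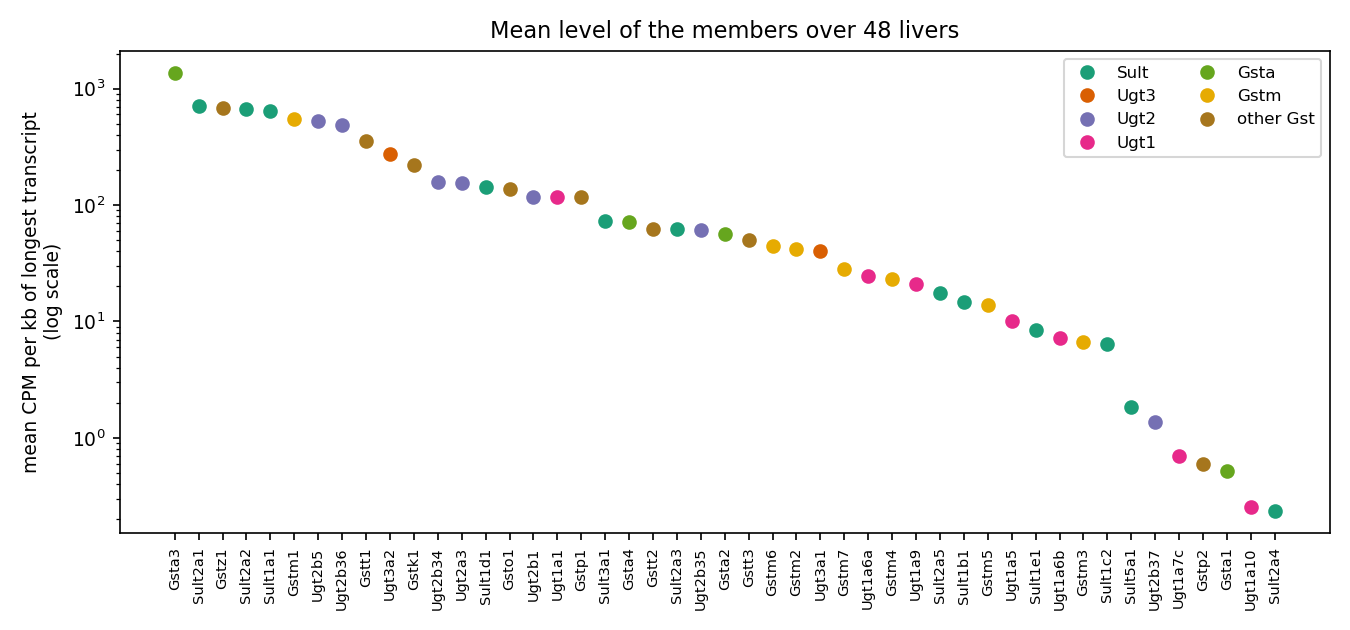
Mean level of 47 conjugation enzyme transcripts over 48 livers, as CPM per kb of the longest annotated transcript on a log scale, ordered from high to low and coloured by class (Sult2a7 had no annotated transcript and is not drawn). Gsta3 stands highest at 1372 and Sult2a4 lowest at 0.236 CPM per kb.

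Between KO and WT, averaged over the 6 times, 2 of the 48 genes passed the test and both were higher in KO: Ugt2b37 and Sult2a4. Of all genes tested, 1.4% passed in either direction, 0.623% as higher and 0.777% as lower in KO. In bulk liver RNA, fewer cells of a type and less RNA per cell cannot be told apart. At an unadjusted p under 0.05 there were 15 of 48, 12 higher and 3 lower, against 17.1% of all genes (8.26% higher and 8.86% lower). By sign alone, 30 lay above 0 and 18 below, beside 48.9% of all genes above 0. The median log2 difference was 0.14, against -0.00 over all genes tested. By class, 12 of 13 Sult, 7 of 7 Ugt2 and 2 of 2 Ugt3 genes lay above 0 and 7 of 7 Ugt1 genes lay below 0. Genes of a class are not independent readings, since Ugt1 genes share sequence and Sult2a genes moved together from mouse to mouse (both below). Without KO ZT16 replicate 3, 3 of 7 Ugt1 genes lay above 0. The Ugt1 and Ugt2 signs did not hold when the GC slope of each library (described further on) was a covariate, where 5 of 7 Ugt1 and 4 of 7 Ugt2 genes lay above 0. No gene of these 2 families except Ugt2b37 passed in either fit.

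**Figure D2:**
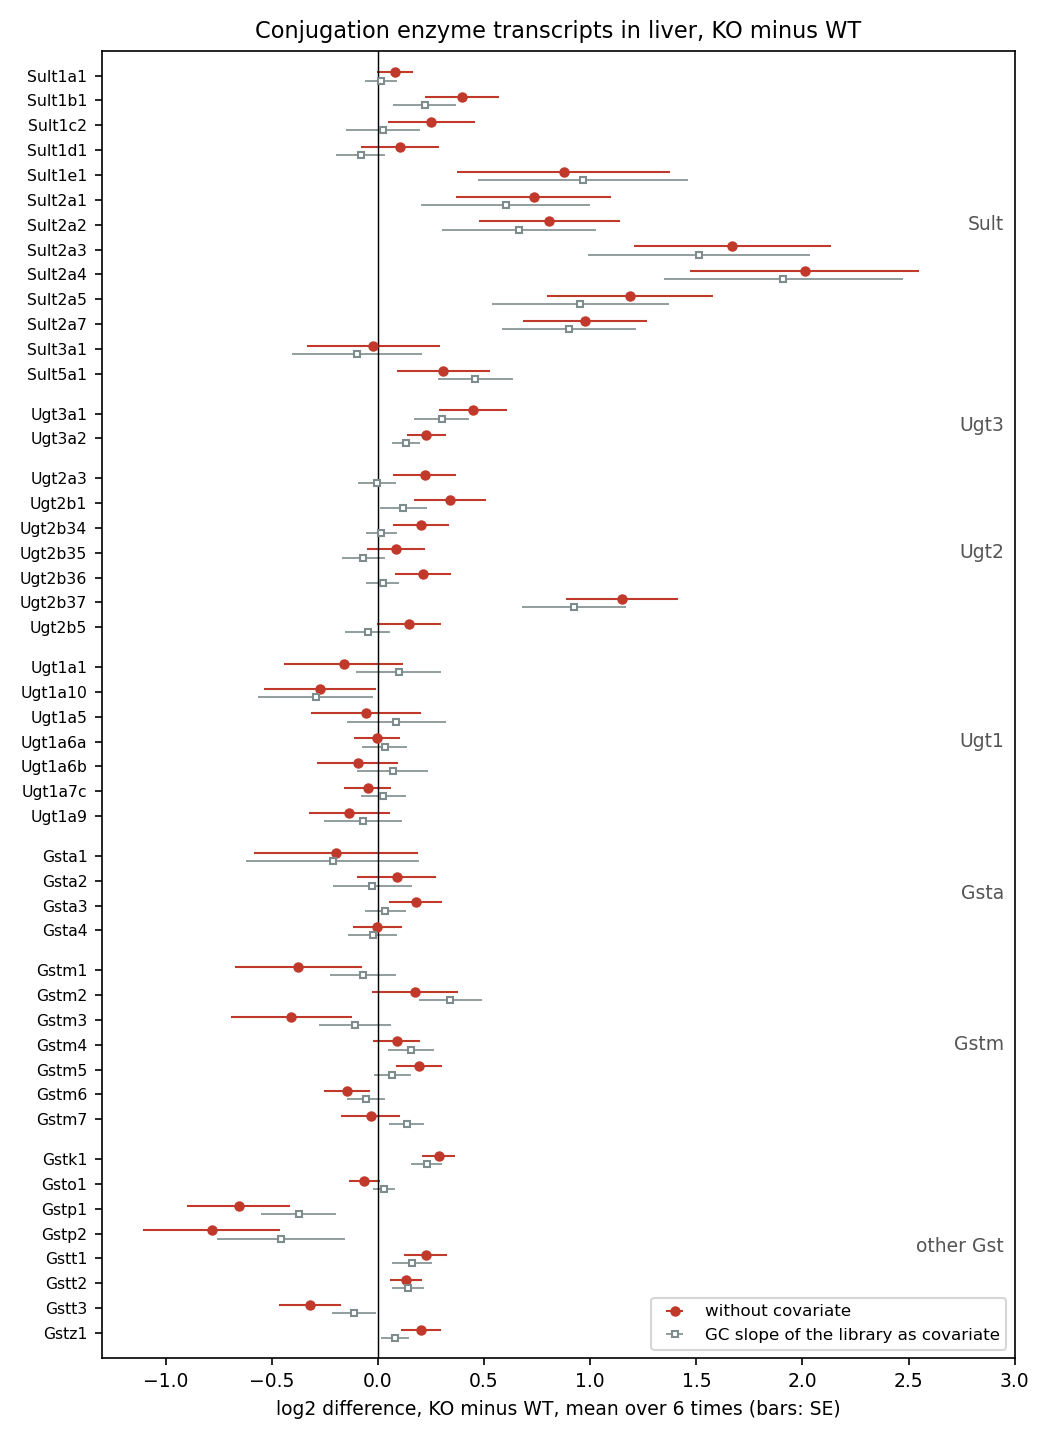
Log2 difference, KO minus WT, of all 48 genes as the mean over 6 times (points, bars are SE), without a covariate in red and with the GC slope of the library as covariate in grey squares, by class. Sult2a genes lie right of 0 in both fits, Ugt2 genes shift toward or across 0 with the covariate, and so do Ugt1 genes except Ugt1a10 (-0.27 without and -0.29 with it). The point of Sult2a4 is a fitted value that includes a WT group without a read.

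Ugt2b37 encodes a transferase of the steroid and bile acid family Ugt2b (ENSMUSG00000057425, mm9 chromosome 5, 87669518 to 87683829). It was a scarce transcript. The KO livers ranged from 0.474 to 13.2 CPM with a median of 2.78, and the WT livers from 0.250 to 3.92 CPM with a median of 1.53. The ranges overlapped, and the highest KO livers exceeded every WT liver. The log2 difference was 1.15 (SE 0.26, edgeR quasi-likelihood test, Benjamini-Hochberg adjusted p = 0.0151), with the KO mean above the WT mean at 6 of 6 times. At ZT16 the 3 KO livers held 2.15, 10.96 and 13.2 CPM, against 2.25, 2.51, 1.01, 2.802 and 2.06 CPM in the 5 WT livers. At ZT0 they held 7.95, 2.1304, 2.14 and 2.18 CPM in KO, against 1.97, 0.571, 1.65 and 0.936 CPM in WT. All 4 KO livers at ZT0 thus lay above all 4 WT livers, whereas at ZT16 1 KO liver lay among the WT livers. The call held in each fit that left out 1 library (log2 1.03 to 1.28). With body weight as covariate the log2 difference was 1.27 (SE 0.31) and the adjusted p 0.0610, so the call was lost.

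The neighbouring and far more abundant Ugt2b5 did not pass: it averaged 1040 ± 471 CPM in KO and 939 ± 438 CPM in WT (SD, n = 23 and 25; log2 0.15, SE 0.15, adjusted p = 0.604). Of the 50-base windows of the Ugt2b37 transcript, 15.2% also occur in Ugt2b5, so some reads counted to Ugt2b37 may belong to its neighbour, and how the counting treated them is not given in the sources used here. The other Ugt2 genes (Ugt2a3, Ugt2b1, Ugt2b34, Ugt2b35 and Ugt2b36) had log2 differences of 0.09 to 0.34 and none passed. The start regions of Ugt2b37 and Ugt2b5 are printed because 1 gene of the pair passed and the other did not. The regions are 82.3% identical, as matched bases over the full 300-base window. They are RefSeq windows of build GRCm38.p6 from 250 bases before to 50 bases after the start site, read on the gene's strand (5′ to 3′), at chr5:87254739-87255038 (minus strand) for Ugt2b37 and chr5:87140291-87140590 (minus strand) for Ugt2b5. Capitals mark AGGTCA, a site of nuclear receptors.
Ugt2b37: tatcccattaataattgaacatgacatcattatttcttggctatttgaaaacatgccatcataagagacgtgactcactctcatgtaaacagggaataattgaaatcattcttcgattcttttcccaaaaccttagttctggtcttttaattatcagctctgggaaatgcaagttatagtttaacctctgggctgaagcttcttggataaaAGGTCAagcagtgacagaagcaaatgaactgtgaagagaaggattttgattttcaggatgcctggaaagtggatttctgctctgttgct
Ugt2b5: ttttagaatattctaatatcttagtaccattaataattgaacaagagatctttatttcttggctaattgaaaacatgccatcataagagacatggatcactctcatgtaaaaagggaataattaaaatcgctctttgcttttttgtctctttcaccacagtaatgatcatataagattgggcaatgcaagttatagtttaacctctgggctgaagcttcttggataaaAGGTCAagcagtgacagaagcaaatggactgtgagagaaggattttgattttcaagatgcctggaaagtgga
In both the motif stands shortly upstream of the start, 39 bases before it in Ugt2b37 and 22 bases in Ugt2b5. Windows were found for 41 of the 48 genes and searched on both strands for CACGTG (the E-box of the clock), TTATGTAA (the D-box of PAR bZIP factors), AGGTCA, TGACNNNGC (antioxidant response element) and GCGTG (AHR element). Of the 32851 mouse start windows in the table, 7.15%, 0.938%, 16.3%, 12.4% and 32.4% held them, in that order of motifs. No other motif of the 5 was found in these 2 windows, and a match describes letters only.

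The 6 Sult2a genes encode hydroxysteroid and bile acid sulfotransferases and lie in a cluster on mm9 chromosome 7, between 14209341 and 15078290. All 6 had higher means over time in KO than in WT, and their median log2 difference was 1.08. Of the 6, Sult2a4 (ENSMUSG00000074377) passed the test, and its counts were low. The 23 KO livers together held 105 counts of it and the 25 WT livers 39, a ratio of mean CPM of 3.02. The KO livers ranged from 0 to 1.47 CPM with a median of 0.232, and the WT livers from 0 to 0.470 CPM with a median of 0.0704. All WT livers lay inside the KO range. The fitted log2 difference of 2.01 (SE 0.54, adjusted p = 0.0488) includes the WT livers at ZT20, which held no read. With 3 counts put in place of that empty group, the mean of the 6 log2 ratios was 1.66. The call was lost in 32 of the 46 fits that left out 1 library and still tested the gene, and with the GC slope (adjusted p = 0.0770), body weight (0.168 for the adjusted p), no count filter (0.0556) or the replicate block (0.0675).

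The other Sult2a genes did not pass. Sult2a3 ranged from 2.01 to 813 CPM in KO with a median of 56.9, and from 0.0849 to 108 CPM in WT with a median of 13.0. Its log2 difference was 1.67 (SE 0.46, adjusted p = 0.0564), with a higher KO mean at 6 of 6 times. Sult2a5, Sult2a7, Sult2a2 and Sult2a1 had log2 differences of 1.19, 0.98, 0.81 and 0.73, with adjusted p from 0.0828 to 0.295. The highest KO liver, ZT16 replicate 3 from a mouse of 105 weeks, held 4271 CPM of Sult2a1, 2570 of Sult2a2 and 813 of Sult2a3. Without it the log2 differences were 0.48 for Sult2a1, 0.51 for Sult2a2 and 1.12 for Sult2a3 (adjusted p = 0.276). With age as covariate Sult2a3, Sult2a4 and Sult2a7 passed together with Ugt2b37.

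**Figure D3:**
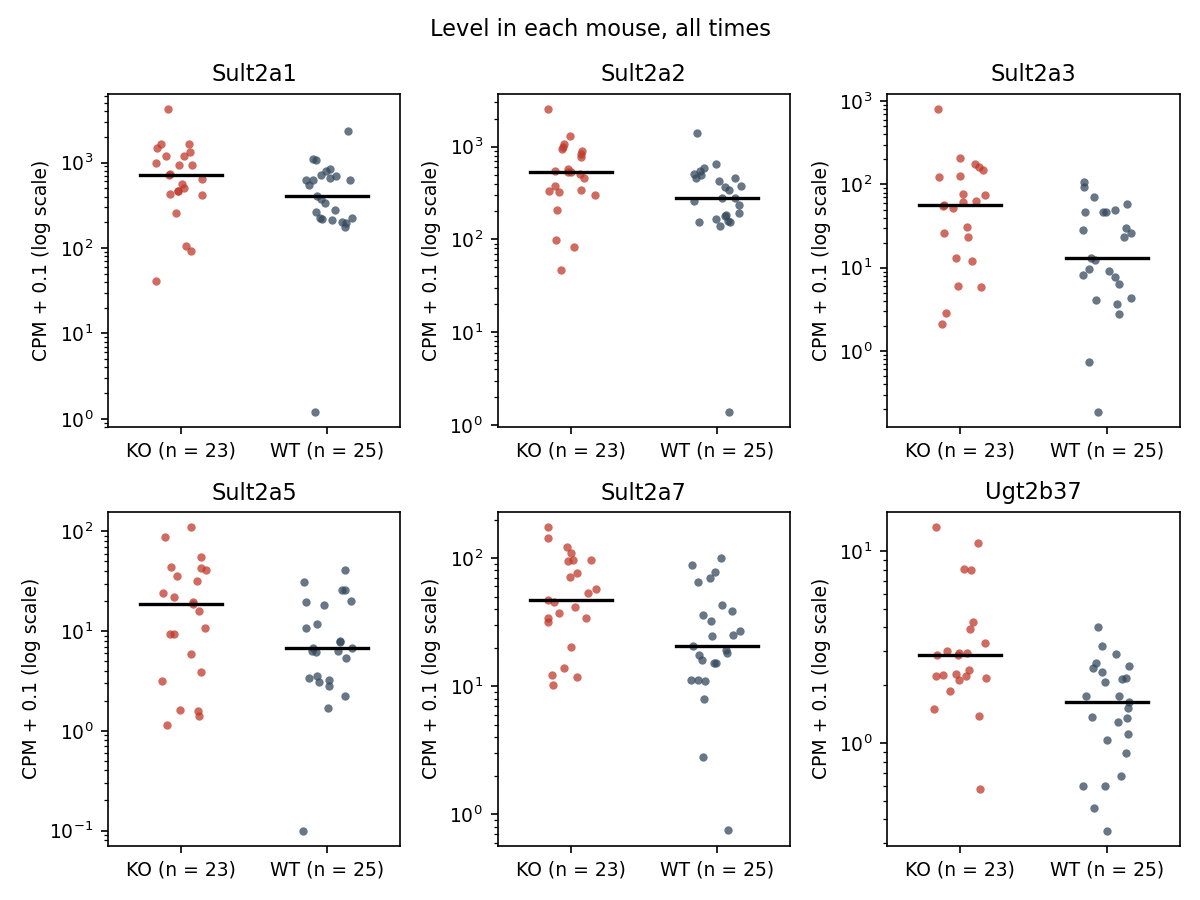
Level of 5 Sult2a genes and Ugt2b37 in each of 23 KO livers (left, red) and 25 WT livers (right, dark), all times together, as CPM + 0.1 on a log scale with the median as a black line. The medians are higher in KO in each panel, the ranges overlap, and 1 WT liver lies far below the others for Sult2a1 and Sult2a2.

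Between mice of a group the Sult2a genes were among the most variable transcripts of the liver. The within-group SD of Sult2a3 was 2.08 on the log2 scale, above 99.9% of all genes tested, and 1.86, 1.65 and 1.79 for Sult2a1, Sult2a2 and Sult2a5, against a median of 0.41 over all genes. They moved together from mouse to mouse. Over 15 pairs of the 6 genes, the deviations from group means of 48 livers had Pearson r of 0.24 to 0.99 and Spearman rho of 0.19 to 0.98. The 10 pairs without Sult2a7 ran from 0.66 (Sult2a2 with Sult2a4) to 0.99 (Sult2a1 with Sult2a2), and the 5 pairs with Sult2a7 from 0.24 to 0.48. For Sult2a1 with Sult2a3, r was 0.90 and rho 0.88 (permutation within groups, two-sided adjusted p = 1.67e-05 and 1.50e-05), with r of 0.87 without the 2 livers farthest from the median, 0.96 in KO and 0.87 in WT. For Sult2a4 with Sult2a7, r was 0.24 and rho 0.19 (permutation adjusted p = 0.134 and 0.249). The genes share a library in each liver, and 41.3% of the 50-base windows of Sult2a2 also occur in Sult2a1, which bears on that pair, but Sult2a3 shares 8.36% of its windows with any other gene. Within groups the Sult2a genes had positive slopes on age, the steepest 0.65 log2 per 10 weeks for Sult2a3 (SE 0.14, adjusted p = 0.0781). None of the 48 passed for age, where 0.0366% of all genes did, nor for body weight, where 0% of all genes did. At an unadjusted p under 0.05 there were 7 of the 48 for age, against 6.05% of all genes. For body weight there were 4, against 6.57% of all genes.

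The start regions of Sult2a3, Sult2a4 and Sult2a5 are printed because these 3 genes had the largest log2 differences of the family. They are RefSeq windows of the same kind and build, at chr7:14122999-14123298 (minus strand), chr7:13989539-13989838 (minus strand) and chr7:13623717-13624016 (plus strand). None held any of the 5 motifs, so no letter is in capitals.
Sult2a3: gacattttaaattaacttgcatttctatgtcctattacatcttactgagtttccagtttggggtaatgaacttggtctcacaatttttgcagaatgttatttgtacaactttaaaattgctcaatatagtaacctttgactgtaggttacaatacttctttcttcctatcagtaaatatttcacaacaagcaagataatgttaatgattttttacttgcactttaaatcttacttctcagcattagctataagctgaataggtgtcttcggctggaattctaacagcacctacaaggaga
Sult2a4: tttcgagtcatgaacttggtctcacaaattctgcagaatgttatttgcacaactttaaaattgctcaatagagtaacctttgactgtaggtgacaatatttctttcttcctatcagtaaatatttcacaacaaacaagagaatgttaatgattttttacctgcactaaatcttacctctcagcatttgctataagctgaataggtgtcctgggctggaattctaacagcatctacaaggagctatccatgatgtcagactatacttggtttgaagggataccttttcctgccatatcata
Sult2a5: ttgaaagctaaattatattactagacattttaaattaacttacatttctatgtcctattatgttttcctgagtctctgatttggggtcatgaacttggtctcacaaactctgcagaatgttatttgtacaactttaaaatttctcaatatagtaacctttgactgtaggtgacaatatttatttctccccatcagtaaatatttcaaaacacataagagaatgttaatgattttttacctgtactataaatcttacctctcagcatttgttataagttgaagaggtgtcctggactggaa
Sult2a3 was 74.7% identical to Sult2a4 and 80.7% to Sult2a5, and Sult2a4 was 67.3% identical to Sult2a5. These are matched bases over the full 300-base window, so an offset between the annotated start sites lowers them. By the same measure, pairs of Ugt2b windows ran from 52.0% to 82.3%.

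WT ZT16 replicate 4 stood apart. Of the 48 genes it had the lowest value of all libraries, ties included, for 8 (Sult2a1, Sult2a2, Sult2a3, Sult2a4, Sult2a5, Sult3a1, Ugt3a1 and Ugt3a2) and the highest for 4 (Gstm1, Gsto1, Gstp1 and Gstp2). It held 1.10 CPM of Sult2a1, where the other libraries ranged from 41.1 to 4271, and 1.95 CPM of Sult3a1, where the others ranged from 11.9 to 393. Its Gstp1, the pi-class transferase, was 559 CPM against 17.6 to 211 in the others, and its major urinary protein Mup20 743 CPM against 43.4 to 402. As background, mouse Sult2a1, Sult2a2 and Sult3a1 are female-predominant and Gstp1 and Mup20 male-predominant. The library held 257 CPM of Xist, present in all 48, and the Y-linked Kdm5d, Uty and Eif2s3y had at most 1 count in any library. Without this library 1 of the 48 passed over all times, Ugt2b37, beside 162 of all genes. Another library, KO ZT0 replicate 2, held 208 CPM of exocrine pancreas markers, where WT libraries held at most 11.4 CPM. Without it Ugt2b37 again was the 1 gene of the 48 that passed, beside 176 of all genes.

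The remaining Sult and Ugt genes gave no call over all times. Sult1b1 (thyroid hormones) ranged from 11.5 to 121 CPM in KO with a median of 38.9, and from 12.6 to 75.9 CPM in WT with a median of 31.4 (log2 0.40, SE 0.17, adjusted p = 0.238). Sult1e1, the oestrogen sulfotransferase, ranged from 0.150 to 134 CPM in KO and from 0.352 to 35.3 CPM in WT, and its log2 difference of 0.88 had an SE of 0.50. Ugt3a1 averaged 105 ± 30.6 CPM in KO and 75.6 ± 27.99 CPM in WT, and Ugt3a2 687 ± 112 and 583 ± 137 CPM (SD, n = 23 and 25), with log2 differences of 0.45 (SE 0.16, adjusted p = 0.152) and 0.23 (SE 0.09, adjusted p = 0.207), each with a higher KO mean at 6 of 6 times. Human UGT3A enzymes use sugars other than glucuronic acid. Ugt1a1 averaged 249 ± 144 CPM in KO and 272 ± 147 CPM in WT, a difference far smaller than the spread. The 7 Ugt1 genes overlap on mm9 chromosome 1 and share their last exons: 58.2% to 100% of their 50-base windows occur in another gene, so how counts fell among them is uncertain. Among them Ugt1a10 had the smallest p (log2 -0.27, SE 0.27, adjusted p = 0.584).

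No Gst gene passed over all times. Gstk1, the kappa-class enzyme of mitochondria and peroxisomes, came closest: it averaged 227 ± 50.5 CPM in KO and 186 ± 34.8 CPM in WT (SD, n = 23 and 25; log2 0.29, SE 0.08, adjusted p = 0.0546), with a higher KO mean at 6 of 6 times. It ranged from 143 to 324 CPM in KO with a median of 222, and from 128 to 281 CPM in WT with a median of 189, so the groups overlapped. Gstp1 ranged from 17.6 to 211 CPM in KO with a median of 49.8, and from 39.9 to 559 CPM in WT with a median of 97.0 (log2 -0.66, SE 0.24, adjusted p = 0.166). The KO mean of Gstp1 was the lower at each of the 6 times. Gstp2 shares 64.3% of its windows with Gstp1, so the pair is not 2 independent readings. Gsta3 averaged 2093 ± 852 CPM in KO and 1912 ± 732 CPM in WT (log2 0.18, SE 0.12, adjusted p = 0.453). Gstm1 averaged 592 ± 381 CPM in KO and 811 ± 459 CPM in WT (log2 -0.37, SE 0.30, adjusted p = 0.508), and for Gstm5, the Gstm gene with the smallest p, KO minus WT came to 0.19 on the log2 scale (SE 0.11, adjusted p = 0.353).

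At single times no gene of the 48 passed by edgeR. All genes called by edgeR were 0.0147% at ZT0, 0.0366% at ZT4, 0% at ZT8 and ZT12, 0.022% at ZT16 and 0% at ZT20. By DESeq2 1 of the 48 passed, but the share of all genes by DESeq2 was not counted, so this call cannot be set against it. At an unadjusted p under 0.05 there were 3, 16, 0, 6, 5 and 0 of the 48 from ZT0 to ZT20, against 5.53%, 23.3%, 1.82%, 4.4%, 6.65% and 1.84% of all genes. The difference between genotypes did not pass a test of change with time for any of the 48 by edgeR (1 at an unadjusted p under 0.05, beside 3.28% of all genes) or by DESeq2, and 0.00733% of all genes passed.

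At ZT4 the result depended on 1 KO library. Gstm1 was 1328, 132, 67.0 and 86.6 CPM in the 4 KO livers at ZT4, against 1319, 1081, 1085 and 1273 CPM in the 4 WT livers. KO replicate 1 thus lay with the WT livers and the other 3 far below. Without KO ZT4 replicate 1, 16 of the 48 passed at ZT4, 8 higher and 8 lower, beside 24.6% of all genes. The lower ones were Gstm1 (log2 -3.64, SE 0.77, adjusted p = 0.0117), Gstm3, Gstm6, Gstt3, Ugt1a1, Ugt1a5, Ugt1a6b and Ugt1a9. The higher ones were Gstk1, Gstm5, Gstz1, Ugt2a3, Ugt2b1, Ugt2b36, Ugt2b37 and Ugt2b5, from log2 0.73 (Gstk1) to 1.79 (Ugt2b37).

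A similar split of genes went with a property of the libraries. For each library, the slope of its gene levels on the GC content of transcripts was taken, in log2 per 10 percentage points of GC. These slopes ran from -0.81 to 0.62 and averaged -0.10 ± 0.39 in KO and 0.09 ± 0.41 in WT (SD, n = 23 and 25). At ZT4 they were 0.52, -0.33, -0.81 and -0.69 in the KO livers, against 0.56, 0.34, 0.02 and -0.03 in the WT livers. Within groups, 33 of the 48 genes passed for this slope (15 rising and 18 falling with it), beside 69.6% of all genes. Over 48 livers Gstm1 had r = 0.89 and rho = 0.85 with the slope (0.85 without the 2 farthest libraries), and Ugt2b34 had r = -0.87 and rho = -0.81 (-0.85 without them). The adjusted p of r over the 48 genes was 3.69e-05 for both (100000 permutations within groups, two-sided). Gstm3, Gstm7 and Gsto1 also followed Gstm1, and Ugt2b36 and Ugt2a3 followed Ugt2b34, with r of -0.85 and -0.84. The sign did not go by class or by GC content alone. Gstm5 (50.5% GC), Gstz1 (50.1%), Gstk1 (50.2%) and Gstt1 (54.9%) had r of -0.63, -0.77, -0.41 and -0.43. An absolute r over 0.5 was found for 52.1% of the 48 genes, beside 55.0% of all genes tested. The Sult2a genes had r of -0.02 to -0.21, none past the threshold. Transcripts of Gstm1 and Ugt2b34 have 53.6% and 38.8% GC. Whether the slope is of technical or of biological origin was not tested. With it as covariate in the fit of all 48 libraries no gene of the 48 passed at any single time, and none did without it. The fit without KO ZT4 replicate 1 was not run with this covariate, so its calls cannot be judged from this.

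**Figure D4:**
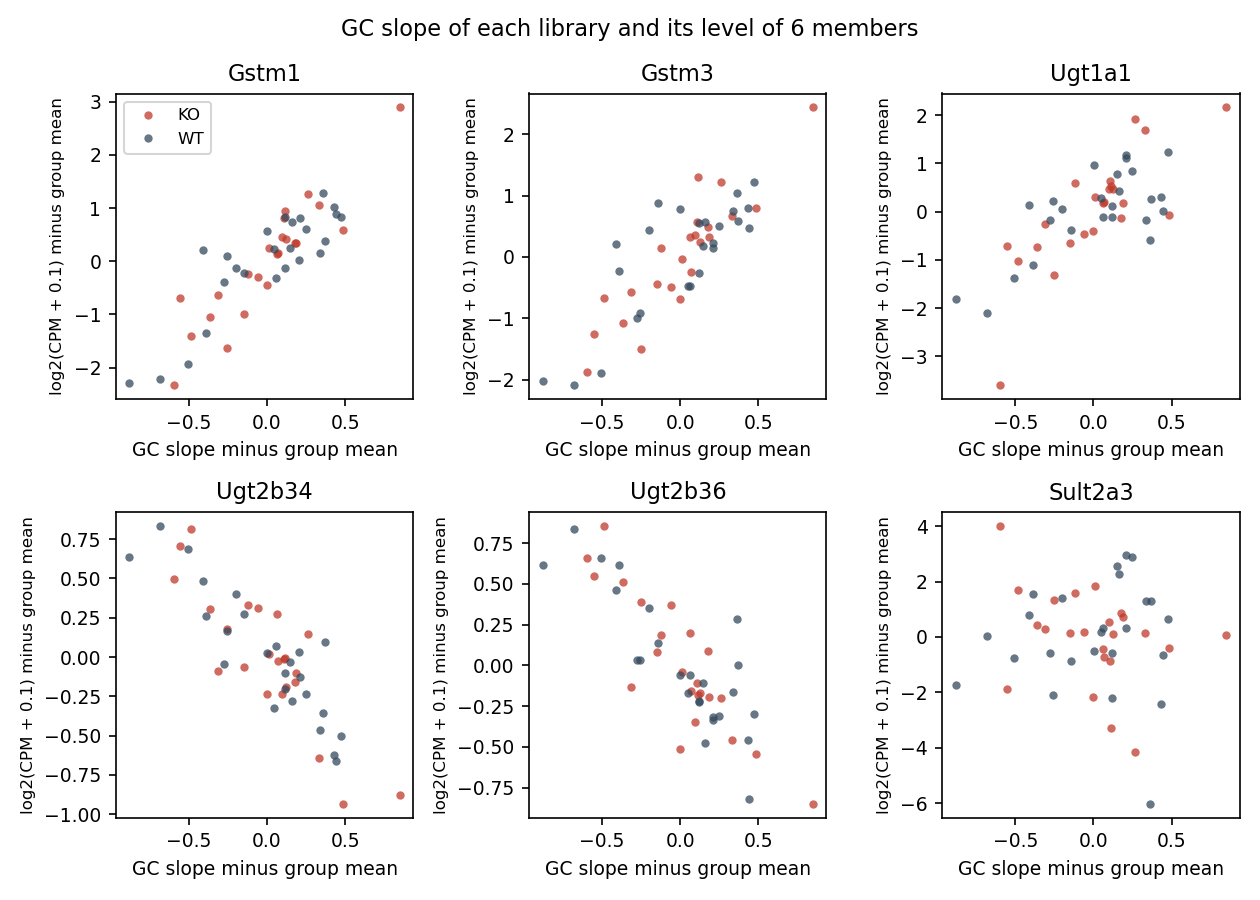
Deviation of log2(CPM + 0.1) from the group mean (vertical) against deviation of the library's GC slope from the group mean (horizontal, log2 per 10 points of GC) for 6 genes, KO in red and WT in dark, 48 livers per panel. Gstm1, Gstm3 and Ugt1a1 rise with the slope, Ugt2b34 and Ugt2b36 fall with it, and Sult2a3 shows no such trend; the highest point of Gstm1 is KO ZT4 replicate 1.

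Rhythms over the day were found in 11 of the 48 genes in KO and 8 in WT, against 17% of all genes in KO and 16.3% in WT. The 6 rhythmic in both (Gstt2, Gstm4, Gsta3, Sult1a1, Ugt2b35 and Sult2a7) compare with 9.59% of all genes. With body weight as covariate Sult1a1 and Sult2a7 were called in neither genotype, and without a count filter Sult2a7 was not called in WT. The remaining calls were Gsta2, Gsta4, Gstm7, Gstp2 and Sult1c2 in KO, and Gstz1 and Sult1b1 in WT. The difference in rhythm passed for none by edgeR (5 at an unadjusted p under 0.05, beside 2.66% of all genes) or by DESeq2, and 0.00733% of all genes passed, so a call in 1 genotype is not a difference between them.

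Gstt2, a theta-class transferase, had the clearest rhythm. At ZT8 it held 149.6, 231, 155 and 223 CPM in the KO livers and 165, 213, 251 and 167 CPM in the WT livers. At ZT20 it held 91.7, 94.6, 100.3 and 129.9 CPM in KO and 81.9, 61.9, 106 and 89.9 CPM in WT. The livers of the 2 times did not overlap in either genotype. The fitted amplitude (mean to peak) was 0.59 log2 in KO (SE 0.08, adjusted p = 2.11e-06) and 0.64 in WT (SE 0.07, adjusted p = 3.55e-07), with peaks at 9.43 h and 10.1 h. Its level did not follow the GC slope (r = 0.08, rho = 0.04). Gstt2 was not among the 41 genes for which a RefSeq start window was found.

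Gstm4 of the mu class peaked early, at 2.53 h in KO and 4.30 h in WT, with amplitudes of 0.63 (SE 0.11, adjusted p = 0.000590) and 0.51 (SE 0.10, adjusted p = 0.00165). It averaged 57.6 ± 16.1 CPM in KO and 55.5 ± 8.16 CPM in WT at ZT4, against 23.9 ± 6.37 CPM in KO and 26.6 ± 6.16 CPM in WT at ZT16 (SD, n = 4 and 4 at ZT4, 3 and 5 at ZT16). Gsta3 and Sult1a1 peaked after ZT12. Gsta3 peaked at 13.9 h in KO and 14.8 h in WT (amplitudes 0.48 and 0.49, adjusted p = 0.0113 and 0.00443), and Sult1a1 at 15.5 h and 16.3 h (0.37 and 0.32, adjusted p = 0.00889 and 0.0182). Ugt2b35 peaked at 7.34 h in KO and 5.84 h in WT with amplitudes of 0.53 and 0.51. Sult2a7 peaked at 6.83 h in KO and 9.17 h in WT with the larger amplitudes of 1.15 and 1.23, but with adjusted p of 0.0370 and 0.0460 it lay near the threshold. Gsta4, which conjugates the lipid aldehyde 4-hydroxynonenal, was rhythmic in KO (amplitude 0.58, SE 0.12, adjusted p = 0.00183) and had an amplitude of 0.09 (SE 0.11, adjusted p = 0.668) in WT, with an adjusted p of 0.9999 for the difference in rhythm. Sult1c2 (amplitude 0.95, adjusted p = 0.00956), Gsta2 (0.76, 0.0277 for the adjusted p), Gstp2 (0.77, 0.0314) and Gstm7 (0.51, 0.0149) were the other rhythms called in KO, with adjusted p of 0.0518, 0.673, 0.322 and 0.320 in WT. Sult1b1 (amplitude 0.71, adjusted p = 0.0292) and Gstz1 (0.32, 0.0432) were called in WT, with adjusted p of 0.0563 and 0.0821 in KO.

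**Figure D5:**
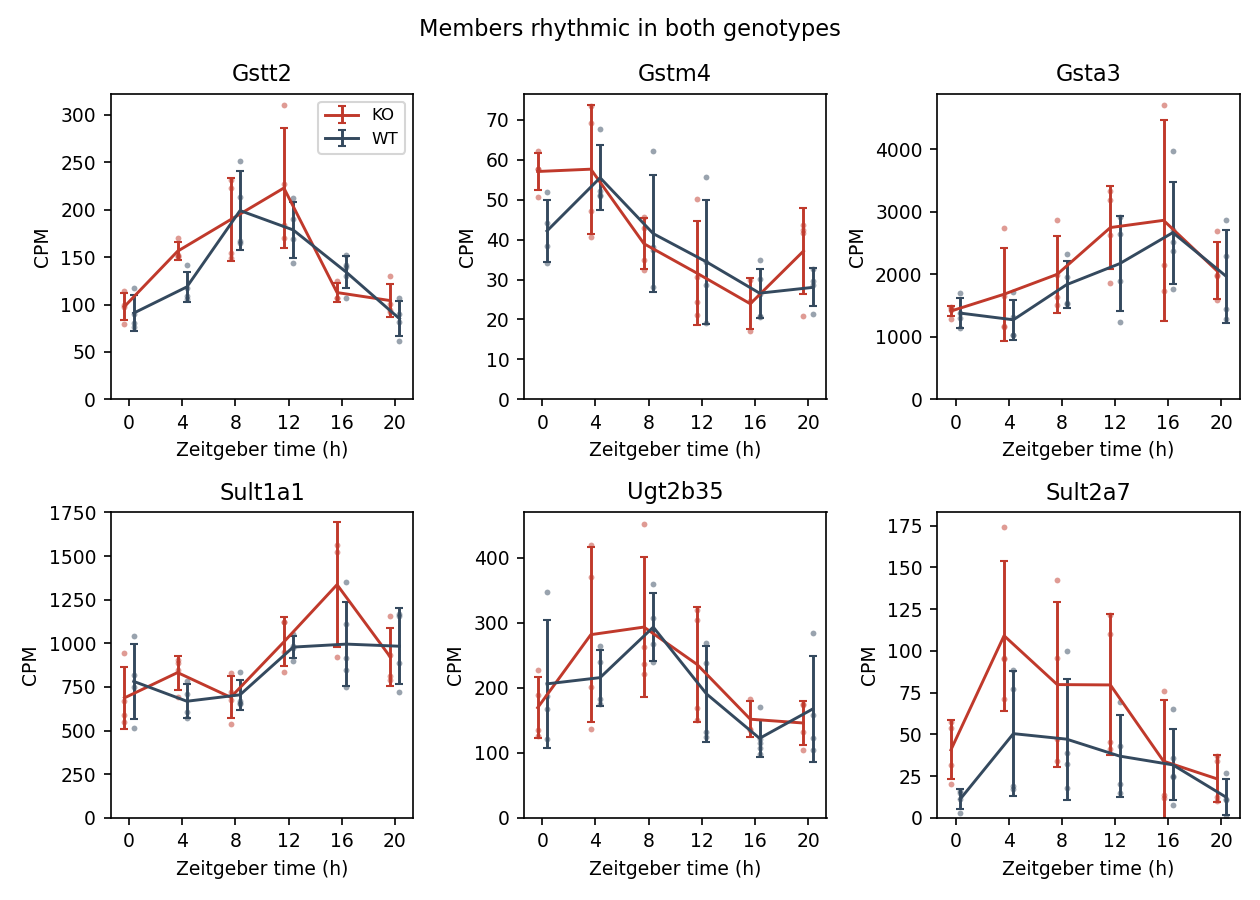
CPM against zeitgeber time for the 6 genes rhythmic in both genotypes, KO in red (drawn slightly left) and WT in dark, with single livers as dots and the mean with SD as lines and bars (4 livers per point, 3 KO and 5 WT at ZT16). Gstt2 is highest at ZT8 and ZT12, Gstm4 at ZT0 and ZT4 and Gsta3 at ZT12 and ZT16 in both genotypes.

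One KO library weighed on the count of rhythms. Without KO ZT16 replicate 3, 22 of the 48 were rhythmic in KO, beside 26.6% of all genes. At ZT16 itself, 0 of the 48 passed between KO and WT without it by edgeR, beside 0.0504% of all genes, with 4 at an unadjusted p under 0.05 and 0 passing by DESeq2. The added ones included Sult2a3, Sult2a4 and Sult2a5, whose highest value this library held, and Ugt2b5 and Ugt2b36. In WT the count was 4 without WT ZT8 replicate 2 and 5 without WT ZT0 replicate 1, 2 or 3 or WT ZT20 replicate 4. The share of all genes rhythmic in these WT fits was not counted, so the lower counts cannot be set against it.

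Genes around the conjugation enzymes showed no call by edgeR between KO and WT. In cofactor supply, 0 of 11 passed (1 at an unadjusted p under 0.05); Papss2, which makes the sulfonate donor PAPS, averaged 269 ± 81.5 CPM in KO and 221 ± 55.8 CPM in WT (log2 0.31, SE 0.09, adjusted p = 0.0648) and passed by DESeq2. In other conjugation 0 of 11 passed, in efflux and deconjugation 0 of 11, in regulators 0 of 19, and in other NRF2, AHR and CAR target enzymes 0 of 11, with 3, 2, 0 and 1 genes at an unadjusted p under 0.05 and none by DESeq2. Of the regulators, 9 of 19 were rhythmic in KO and 7 of 19 in WT, beside 17% and 16.3% of all genes. Tef and Dbp, PAR bZIP factors that bind the D-box, had adjusted p of 3.15e-08 and 1.13e-07 in KO and 5.39e-09 and 1.17e-08 in WT. The drug sensors Nr1i2 (PXR) and Nr1i3 (CAR) were rhythmic in both genotypes, as was the CAR target Cyp2b10. In cofactor supply 5 of 11 were rhythmic in KO and 5 of 11 in WT, among them Papss2 and Ugp2, which makes UDP-glucose.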

How the data were processed

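Liver polyA RNA was sequenced from stranded TruSeq libraries with 13 PCR cycles, per the labels' protocols. Libraries were made over 3 days and the day of each is not given in the sources used here, so day and group cannot be told apart. The authors deposited 1 read count for each gene and library. Reads were aligned with STAR 2.4.1d to mm9, after CASAVA, per the submitters' processing notes, and the counting program and annotation are not given in the sources used here. The totals are nearly equal between libraries, and how they came to be so is not given in the sources used here. The depth of these counts may thus differ from the depth of sequencing. The row of Alb, set apart in the file and not plain counts, was left out (5.66 to 14.6% of counts).

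From the counts, edgeR 4.0.16 (R 4.3.3) with filterByExpr and TMM scaling fitted 12 group means, or a 24 h cosine per genotype, by quasi-likelihood over 13646 genes, with Benjamini-Hochberg adjustment over all of them and a threshold of 0.05. CPM are counts divided by the TMM-scaled library total. Alternatives were DESeq2 1.42.0, its size factors, no count filter, age, body weight, the first residual principal component, a replicate block and leaving out each library. The GC slope covariate, the slopes on age and weight, the correlations among Sult2a genes and the promoter motifs were chosen after seeing the data. The tests were also run on simulated counts, drawn for each gene on its own. Beyond library size, that simulation held no component shared by the genes of a library, such as the GC slope. It therefore cannot give the error rates of the tests in these data. Replicates are separate mice, and each mouse was sampled once.

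The 48 genes and all lists were chosen with earlier results of these data known. Named with values were genes past the threshold in a comparison (up to 10 each by smallest p), the most abundant of each class and, in a class without a call over all times, that with the smallest p. Genes outside that rule (the other Sult2a genes, Sult1e1, Sult3a1, Gstp1, Gstm3 and those that passed at ZT4 without 1 library) were chosen after their values were seen.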

Additional observations from a re-analysis of the deposited data

Results flagged for a closer look

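Within groups of 4 or 5 livers, 19 of 297 combinations of gene and group (27 named genes) held 1 liver far from the others by Dixon's criterion, and chance marks about 1 in 20 groups. Gstm1 was 1328 CPM in KO ZT4 replicate 1 (others 67 to 132). Gstm4 was 20.9 CPM in KO ZT20 replicate 3 (others 41.6 to 43.6) and 67.7 CPM in WT ZT4 replicate 3 (others 50.9 to 52.2). Gstm5 was 12.3 CPM in KO ZT0 replicate 3 (others 7.8 to 8.11). Gstm7 was 24.8 CPM in WT ZT16 replicate 2 (others 39.1 to 44.9) and 19 CPM in WT ZT20 replicate 2 (others 42.4 to 46.6). Gstp2 was 0.167 CPM in KO ZT12 replicate 2 (others 0.3 to 0.323), 0.164 CPM in KO ZT4 replicate 3 (others 0.0773 to 0.0805) and 2.55 CPM in WT ZT16 replicate 4 (others 0.251 to 0.504). Gstt2 was 170.4 CPM in KO ZT4 replicate 3 (others 150.5 to 153). Gstz1 was 1174 CPM in WT ZT4 replicate 3 (others 886 to 898). Sult1a1 was 835 CPM in WT ZT8 replicate 2 (others 653 to 671). Sult2a3 was 29.5 CPM in WT ZT20 replicate 1 (others 0.645 to 3.97). Sult2a4 was 0.167 CPM in WT ZT12 replicate 3 (others 0). Ugt1a1 was 254 CPM in KO ZT4 replicate 1 (others 27.9 to 42.6). Ugt1a10 was 1.27 CPM in KO ZT0 replicate 1 (others 0.38 to 0.468). Ugt2b37 was 7.95 CPM in KO ZT0 replicate 1 (others 2.1304 to 2.18). Ugt2b5 was 1497 CPM in WT ZT20 replicate 2 (others 558 to 696). Ugt3a1 was 30.3 CPM in WT ZT12 replicate 4 (others 81.9 to 91.5). The KO ZT4 liver that stood apart for Gstm1 and Ugt1a1 is the same library, replicate 1, and WT ZT16 replicate 4 for Gstp2 is the library described with the Sult2a genes.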

How the results depend on the processing

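No difference that passed the test turned its direction. Of those that did not pass, 12 of the 48 changed sign with the GC slope, among them Ugt1a1 (0.10), Ugt2b5 (-0.05), Ugt2b35 (-0.07) and Gsta2 (-0.03). Without 1 library or another, Gsta2, Gsta4, Gstm7 and Sult3a1 did so among the genes followed singly in those fits. Some Ugt1 genes did so too: 3 of 7 lay above 0 without KO ZT16 replicate 3, and 3 without WT ZT12 replicate 3. Over all times the count of 2 became 1 without a count filter, 0 with body weight, 4 with age, 16 with the first residual principal component, 1 with the GC slope and 5 with DESeq2 (Gstk1, Sult2a3, Sult2a4, Sult2a7 and Ugt2b37); the component is orthogonal to the groups by construction, and with it 2878 of all genes (21.1%) passed. With the component the counts were also 19 at single times, 7 for the interaction, 16 for rhythm in WT and 23 in KO, beside 6.49%, 14.1%, 34.1% and 41.5% of all tests made in the same fits. At single times DESeq2 gave 1, with the share of all genes by DESeq2 not counted. Leaving out 1 library gave 1 to 5 over all times, 0 to 16 at single times, 8 to 22 for rhythm in KO and 4 to 10 in WT. Of these fits, only that without KO ZT16 replicate 3 had the share of all genes rhythmic counted. Over all times the count was 5 without KO ZT4 replicate 1, KO ZT16 replicate 1, KO ZT16 replicate 2 or WT ZT8 replicate 2. In these fits 484, 328, 363 and 270 of all genes passed. The count was 4 when WT ZT16 replicate 2 was left out, beside 381 of all genes. On leaving out KO ZT0 replicate 1, KO ZT4 replicate 2, KO ZT12 replicate 4 or WT ZT20 replicate 1 it was 3. There 167, 170, 170 and 167 of all genes passed. At single times it was 3 without KO ZT16 replicate 3, none of them at ZT16. The share of all genes at the other times of that fit was not counted, so these calls cannot be set against it. Interaction and difference in rhythm stayed at 0 without any 1 library. Sult2a7 lost its rhythm call in 16 of 48 such fits in WT and 8 of 48 in KO. In WT, Gstz1 lost it in 14, Sult1b1 in 7 and Ugt2b35 in 1, and in KO, Gsta2 and Gstp2 in 5 each. Over all genes, 191 passed, against 122 without a filter, 38 with body weight, 186 with age, 210 with the GC slope and 356 with DESeq2. The cause of these changes was not tested.

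Mice of the same time and number had the same age in 22 of 23 pairs, but no label names a shared litter, batch or day, so the numbers were not taken to pair the mice. Over the 23 pairs r ran from -0.39 to 0.49, with 13 over 0.1, and 9 KO libraries correlated best with their own number. With the replicate block 1 gene passed over all times, Ugt2b37 (Sult2a4 had an adjusted p of 0.0675), and the counts at single times, of the interaction and of a rhythm difference were each 0. No block fit could be had for rhythm within a genotype. Low counts limit Sult2a4, Ugt1a10, Gsta1 and Gstp2, where small changes were not detectable at this depth.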
